A study of Sus scrofa with 6 samples.

Results

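The adipogenic transcription factors examined here were 10 genes chosen by name from the deposited transcript table, namely PPARG, CEBPA, CEBPB, CEBPD, RXRA, EBF1, EBF2, KLF15, ZNF423 and NR1H3. All 10 were found among the 31908 annotated genes of the table, in 31 transcript rows, 28 of them from Ensembl and 3 from the assembly. RNA was taken from longissimus dorsi (LD), a long muscle along the back, in 6 Laiwu pigs, a fatty breed of North China. The S-H group was 3 pigs with extremely high intramuscular fat (IMF) content (LW63, LW70 and LW119), and the S-L group was 3 pigs with extremely low IMF content (LW82, LW88 and LW90). All were castrated males, taken as the extremes of a larger set of slaughtered pigs, and no treatment separates the groups. Each pig gave 1 library from whole muscle, so that fibres, fat cells, vessels and connective tissue were measured together. A lower share of a cell type and less RNA per cell cannot be told apart in such bulk samples.

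Fat cells form from progenitor cells through a cascade of transcription factors. CEBPB and CEBPD, members of the C/EBP family of leucine zipper proteins, act early and switch on PPARG and CEBPA, which then maintain each other and turn on the genes of the mature fat cell. PPARG is the nuclear receptor regarded as the master regulator of this process, and it binds DNA as a pair with RXRA, the retinoid X receptor alpha. ZNF423, EBF1 and EBF2 mark or commit progenitors, KLF15 is a Krüppel-like factor induced by glucocorticoids that is also active in muscle fibres, and NR1H3 encodes liver X receptor alpha, a sensor of oxysterols that also pairs with RXRA. In muscle, fat cells lie between the fibres and arise from fibro-adipogenic progenitors.

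Values are FPKM, fragments per kilobase of transcript scaled to the mapped fragments of the library, summed over the transcripts of a gene. The study reports the number of reads of each library, but the read count behind a single value is unknown, since counts were not used here. The precision is that of 3 different pigs a group. The summed FPKM of a library ranged from 638536 in LW119 to 846661 in LW82. Groups were compared with limma on log2(FPKM + 0.1) over 12743 protein-coding genes. To pass, a gene needed an unadjusted p under 0.01 together with a log2 fold change of 1 or more in either direction. Of these genes 1.36% passed (1.17% upward and 0.188% downward in S-H), and 8.15% had an unadjusted p below 0.05. No gene had an adjusted p below 0.05 (limma, Benjamini-Hochberg), while 1039 had an unadjusted p below 0.05. The middle value of the log2 fold changes over these genes was 0.21, so a member at 0.21 differed as the bulk of the genes did. Median-ratio size factors brought that median to 0.01 and turned the 149 higher and 24 lower calls into 84 higher and 55 lower.

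Against this background none of the 10 members passed the thresholds. The 2 members with an unadjusted p below 0.05 were CEBPA and PPARG, and these were also the only members whose S-H pigs all lay above the S-L pigs. Such a separation with S-H above was found for 13.1% of all tested genes, and the opposite separation, found for 1.70% of all tested genes, was seen in no member. Of the 10 members, 7 had a log2 fold change above 0, with a median of 0.14 over the members. Over all tested genes the share above 0 was 74.1%, so the members were near that share. The same 74.1% applies to the counts of positive and negative genes in the lists below. Unlike the fit here, the study named PPARG among its differentially expressed genes, using edgeR with the same p and fold thresholds.

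**Figure D1:**
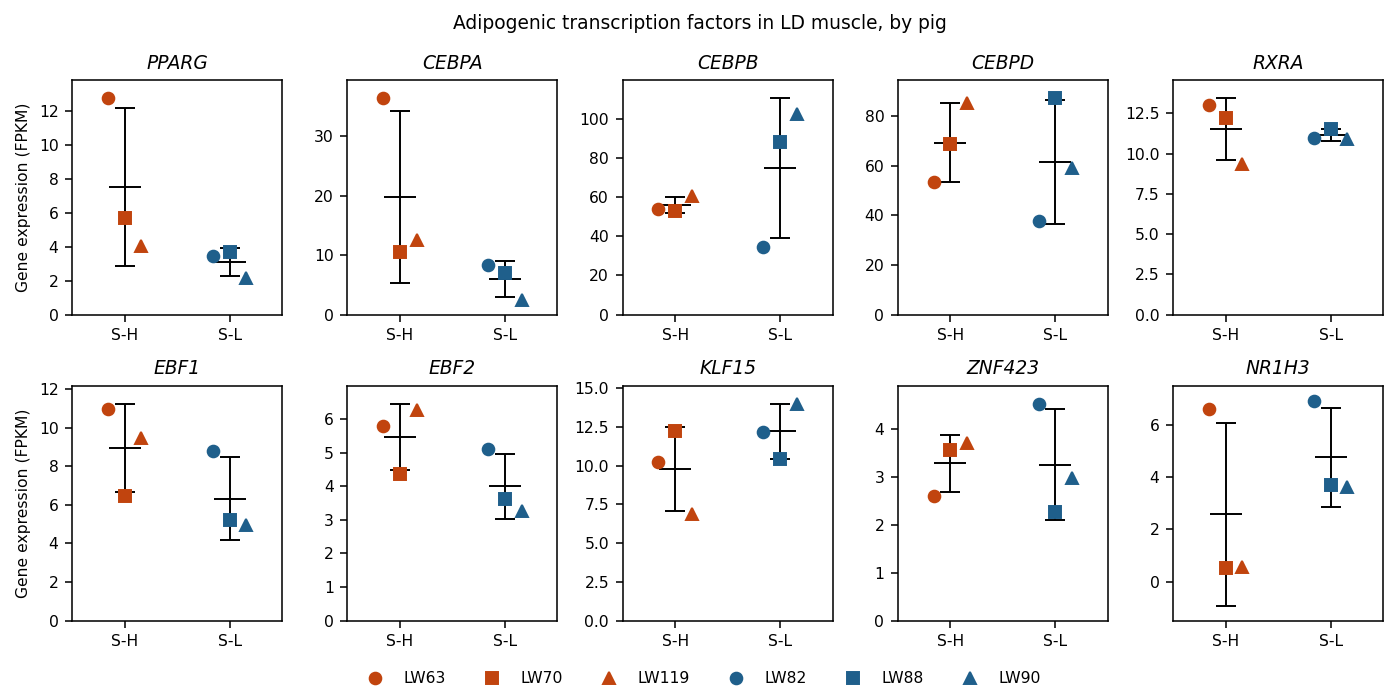
Gene expression in FPKM (y axis, a separate scale for each gene) of the 10 factors in each S-H pig (red) and S-L pig (blue), with the mean and the SD over 3 pigs as bars. PPARG and CEBPA are the panels in which the groups do not overlap, and LW63 is the highest pig in both.

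**Figure D2:**
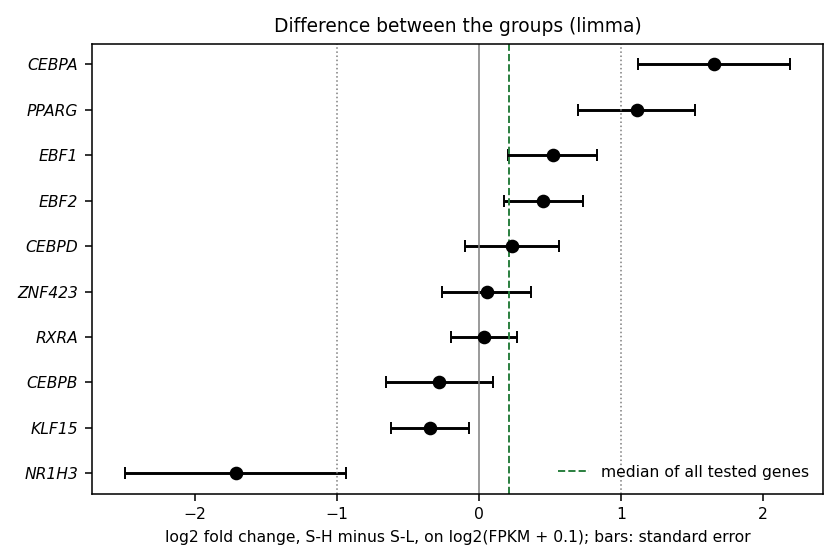
Log2 fold change of S-H against S-L (x axis) for each factor with its standard error from limma, with the median of all tested genes as a dashed line and the fold threshold as dotted lines. CEBPA and PPARG lie to the right of the dotted line, NR1H3 lies to the left with the widest error, and the other 7 lie between the dotted lines.

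PPARG (ENSSSCG00000011579, chromosome 13, 68302655 to 68433947 of Sscrofa11.1) was expressed at 12.8 FPKM in LW63, 5.70 FPKM in LW70 and 4.05 FPKM in LW119. In the S-L pigs it was expressed at 3.46 FPKM in LW82, 3.69 FPKM in LW88 and 2.18 FPKM in LW90. The groups were thus apart, but LW119 exceeded LW88 by little, and LW63 stood well above all others. Between the groups the log2 fold change came to 1.11 with a standard error of 0.41 (limma, unadjusted p of 0.0223, adjusted p of 0.580). Without LW63 it was 0.65 (unadjusted p of 0.105, limma), and without LW119 it was 1.46, which passed (unadjusted p of 0.00392, limma). On the TPM scale, where all libraries have the same sum, it was 1.25 and also passed (unadjusted p of 0.00728, limma). With median-ratio size factors it was 0.90, and there, as with quantile normalization, the groups overlapped, while those of CEBPA did not.

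CEBPA (ENSSSCG00000002866, chromosome 6, 43083203 to 43085836), the C/EBP factor that acts late and together with PPARG, showed the largest positive difference among the members. Its level was 36.5 FPKM in LW63, 10.5 FPKM in LW70 and 12.5 FPKM in LW119. In S-L it was 8.29 FPKM in LW82, 7.04 FPKM in LW88 and 2.50 FPKM in LW90. The groups did not overlap, LW63 was again the highest pig, and LW90 was again the lowest. Their log2 fold change was 1.66 with a standard error of 0.53 (limma, unadjusted p of 0.0112, adjusted p of 0.580). It was 1.10 without LW63 and 1.13 without LW90, and it passed at 1.997 without LW70, at 1.87 without LW119, at 1.98 without LW82 and at 1.80 on the TPM scale.

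CEBPB (ENSSSCG00000034207, chromosome 17) and CEBPD (ENSSSCG00000032367, chromosome 4), the early C/EBP factors, were the most abundant members. CEBPB was at 54.1 FPKM in LW63, 53.0 FPKM in LW70 and 60.5 FPKM in LW119, and at 34.6 FPKM in LW82, 88.2 FPKM in LW88 and 102.3 FPKM in LW90. The 3 S-H pigs lay close together, and the S-L pigs lay on both sides of them. CEBPD was at 53.6 FPKM in LW63, 68.8 FPKM in LW70 and 85.3 FPKM in LW119, and at 37.7 FPKM in LW82, 87.4 FPKM in LW88 and 59.0 FPKM in LW90. For both genes LW82 was the lowest pig, and the groups overlapped. In limma the log2 fold change was -0.28 (standard error 0.38) for CEBPB and 0.23 (standard error 0.33) for CEBPD, with adjusted p values of 0.839 and 0.851 (limma). The sign for CEBPB turned without LW90 (0.015) and that for CEBPD turned without LW82 (-0.079).

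RXRA (ENSSSCG00000038220, chromosome 1, 273705503 to 273797622) was the steadiest member, at 13.1 FPKM in LW63, 12.2 FPKM in LW70 and 9.34 FPKM in LW119, and at 11.0 FPKM in LW82, 11.6 FPKM in LW88 and 10.9 FPKM in LW90. The S-L pigs all lay within the range of the S-H pigs. Its highest pig was 1.40 times its lowest, while this ratio was 14.6 for CEBPA, 13.4 for NR1H3 and 5.87 for PPARG. Its log2 fold change was 0.03 (standard error 0.23, adjusted p of 0.971, limma), and it was -0.18 after division by median-ratio size factors.

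EBF1 (ENSSSCG00000017046, chromosome 16) and EBF2 (ENSSSCG00000009655, chromosome 14), early B cell factors that open chromatin at fat cell genes, had similar profiles. EBF1 was at 10.9 FPKM in LW63, 6.48 FPKM in LW70 and 9.49 FPKM in LW119, and at 8.79 FPKM in LW82, 5.20 FPKM in LW88 and 4.93 FPKM in LW90. EBF2 was at 5.81 FPKM in LW63, 4.38 FPKM in LW70 and 6.26 FPKM in LW119, and at 5.11 FPKM in LW82, 3.62 FPKM in LW88 and 3.27 FPKM in LW90. In both genes the groups overlapped because LW82 was above LW70. The log2 fold changes were 0.52 (standard error 0.31) and 0.45 (standard error 0.28), with adjusted p values of 0.656 and 0.659 (limma), and both stayed above 0 in all settings tried.

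ZNF423 (ENSSSCG00000002838, chromosome 6, 34932594 to 35299692), a zinc finger factor of committed preadipocytes, was at 2.61 FPKM in LW63, 3.56 FPKM in LW70 and 3.71 FPKM in LW119, and at 4.54 FPKM in LW82, 2.26 FPKM in LW88 and 2.98 FPKM in LW90. The highest and the lowest value were both in S-L. For ZNF423 the log2 fold change was 0.06 (standard error 0.31, adjusted p of 0.965, limma), and its sign turned with median-ratio size factors (-0.16). KLF15 (ENSSSCG00000036742, chromosome 7) was at 10.2 FPKM in LW63, 12.2 FPKM in LW70 and 6.89 FPKM in LW119, and at 12.2 FPKM in LW82, 10.4 FPKM in LW88 and 14.0 FPKM in LW90. The groups overlapped. Its log2 fold change of -0.34 (standard error 0.28, adjusted p of 0.716, limma) was below 0 in all settings tried.

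NR1H3 (ENSSSCG00000013241, chromosome 2, 15270789 to 15334820) had the largest negative fold change and the widest error. It was at 6.62 FPKM in LW63, 0.515 FPKM in LW70 and 0.580 FPKM in LW119, and at 6.92 FPKM in LW82, 3.71 FPKM in LW88 and 3.62 FPKM in LW90. LW70 and LW119 were far below the other 4 pigs, while LW63 was at the level of S-L. A log2 fold change of -1.72 had a standard error of 0.78 (limma, unadjusted p of 0.0528, adjusted p of 0.609). Without LW63 it was -2.84 and passed (unadjusted p of 3.29e-05, limma), and without LW70 or LW119 it was -1.12 and -1.19.

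NR1H3 overlaps a neighbouring gene. The transcript NR1H3-201 has the same first and last base in the table (15270789 to 15326202) as MADD-203, a transcript of MADD, which encodes a protein of death receptor signaling. MADD-203 was listed at 0 in LW63, LW82 and LW88. It was at 3.91 FPKM in LW70, 2.82 FPKM in LW119 and 2.64 FPKM in LW90. NR1H3-201 showed the reverse, at 1.70 FPKM in LW63, 0.957 FPKM in LW82 and 1.29 FPKM in LW88, at 0.105 FPKM in LW119 and listed at 0 in LW70 and LW90. With MADD-203 added to NR1H3, the sums were 6.62 FPKM in LW63, 4.42 FPKM in LW70 and 3.40 FPKM in LW119, and 6.92 FPKM in LW82, 3.71 FPKM in LW88 and 6.26 FPKM in LW90. The log2 fold change of these sums was -0.23 (unadjusted p of 0.516, limma). This addition was chosen after the values were seen and raises the 2 lowest pigs, and MADD-203 was higher in all 3 pigs that have it than NR1H3-201 was in any pig. Without NR1H3-201, the other NR1H3 transcripts summed to 4.92 FPKM in LW63, 0.515 FPKM in LW70 and 0.475 FPKM in LW119, and to 5.96 FPKM in LW82, 2.42 FPKM in LW88 and 3.62 FPKM in LW90. LW70 and LW119 were thus also the lowest pigs over the NR1H3 transcripts whose first and last bases differ from those of MADD-203. These transcripts all still overlap MADD-203 in position, so leaving out NR1H3-201 did not remove the overlap. Whether reads were shared between NR1H3 and MADD was not tested.

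**Figure D3:**
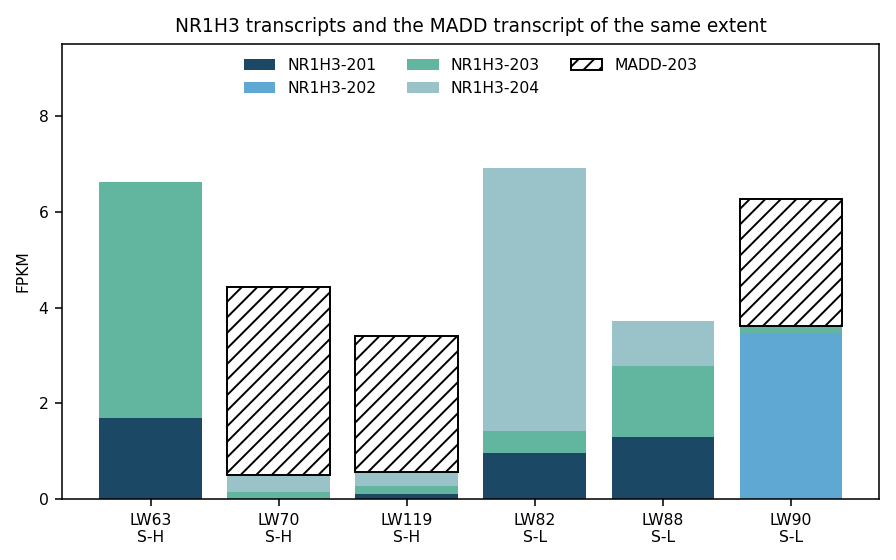
Stacked FPKM (y axis) of the 4 NR1H3 transcripts and of MADD-203 (hatched) in each pig (x axis, with its group). The hatched part is present in LW70, LW119 and LW90, the pigs in which NR1H3-201 was at or near 0.

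On the FPKM scale, which is per length, the order of the members by their mean level over the 6 pigs began with CEBPB (65.5 ± 25.0 FPKM, SD, n = 6) and CEBPD (65.3 ± 19.2 FPKM, SD, n = 6). These were followed by CEBPA (12.9 ± 12.0 FPKM), RXRA (11.3 ± 1.27 FPKM), KLF15 (11.0 ± 2.44 FPKM), EBF1 (7.64 ± 2.46 FPKM), PPARG (5.31 ± 3.83 FPKM), EBF2 (4.74 ± 1.19 FPKM), NR1H3 (3.66 ± 2.78 FPKM) and ZNF423 (3.27 ± 0.827 FPKM), each with the SD over 6 pigs. CEBPD was above CEBPA in all 6 pigs. No other pair of neighbours in this order kept its order in all 6 pigs. EBF1 was above PPARG in 5 of 6 pigs, CEBPB was above CEBPD in 3 of 6, and CEBPA was above RXRA in only 2 of 6. LW63 was the highest pig for 4 of the 10 members (PPARG, CEBPA, RXRA and EBF1), and LW90 was the lowest pig for 4 (PPARG, CEBPA, EBF1 and EBF2).

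Ratios between members of the same pig do not depend on the scaling of its library. For 6 ratios, chosen after the values were seen, groups were set against each other with an exact two-sided permutation test, in which 3 pigs against 3 cannot give a p below 0.10. The ratio of PPARG to its partner RXRA was 0.979 in LW63, 0.467 in LW70 and 0.434 in LW119, against 0.315 in LW82, 0.319 in LW88 and 0.199 in LW90. It was the only one of the 6 whose groups did not overlap (exact p = 0.10, adjusted p = 0.36), at 2.15 times the S-L level. PPARG alone was at 2.16 times and RXRA at 1.02 times, so the size of this difference restates that of PPARG. The ratio of CEBPA to CEBPB was 0.674 in LW63, 0.198 in LW70 and 0.207 in LW119, against 0.240 in LW82, 0.0798 in LW88 and 0.0245 in LW90 (exact p = 0.30). Here LW82 was above LW70 and LW119. The ratio of EBF2 to EBF1 stayed between 0.531 and 0.697 in the 6 pigs (exact p = 0.60).

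The 3 C/EBP genes each have 1 transcript in the table, while the other members have between 2 and 7. Levels of transcripts that overlap are estimates of how shared reads divide among them. PPARG has 3, of which PPARG-202 was listed at 0 in every pig. PPARG-201 starts at the first base of the gene (68302655), and PPARG-203 starts 61.2 kb further along (68363873), and both end within a few bases of each other. The table does not say which protein form each encodes. PPARG-203 was at 12.6 FPKM in LW63, 5.53 FPKM in LW70 and 1.09 FPKM in LW119, and at 1.35 FPKM in LW82, 3.66 FPKM in LW88 and 0.487 FPKM in LW90. PPARG-201 was at 0.146 FPKM in LW63, 0.168 FPKM in LW70 and 2.97 FPKM in LW119, and at 2.11 FPKM in LW82, 0.0306 FPKM in LW88 and 1.69 FPKM in LW90.

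The share of PPARG-203 lay in 2 ranges that cut across the groups. It made up 98.9% of PPARG in LW63, 97.0% in LW70 and 99.2% in LW88, but 26.9% in LW119, 38.9% in LW82 and 22.4% in LW90. The S-H pigs had a mean share of 74.3% ± 41.0 (SD, n = 3), against 53.5% ± 40.4 (SD, n = 3) for the S-L pigs, with p = 0.70 in an exact two-sided permutation test. Neither of the 2 tested PPARG transcripts passed, where 1.25% of the 40336 tested transcripts did. The log2 fold change was 1.58 (standard error 1.01, adjusted p of 0.859, limma) for PPARG-203 and -0.45 (standard error 1.42, adjusted p of 0.973, limma) for PPARG-201.

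**Figure D4:**
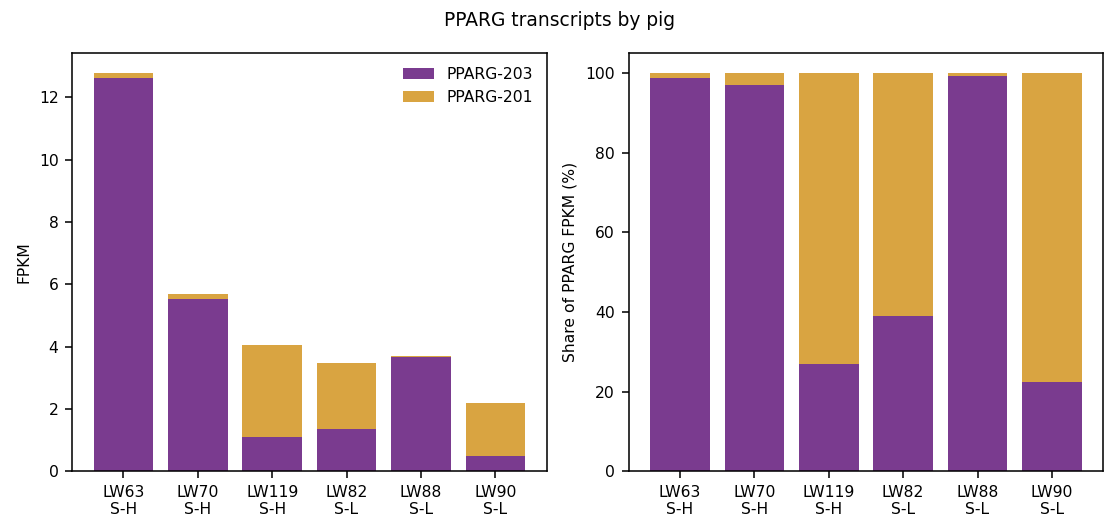
FPKM (left) and share in percent (right) of PPARG-203 and PPARG-201 in each pig (x axis, with its group). PPARG-203 makes up nearly all of PPARG in LW63, LW70 and LW88, and 22.4% to 38.9% in the other 3 pigs.

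Other members also differed in makeup from pig to pig. KLF15-202 was at 7.19 FPKM in LW90 (51.3% of KLF15) and 3.20 FPKM in LW70 (26.2%), and at 2.54% or less of KLF15 in the other 4 pigs. NR1H3-202 was above 0 only in LW90, at 3.47 FPKM, and NR1H3-204 made up 79.4% of NR1H3 in LW82. RXRA-202 ranged from 4.74% of RXRA in LW90 to 44.5% in LW63, although the RXRA sum hardly changed. In contrast, EBF1 and EBF2 each had the same main transcript in every pig, at 78.7% to 97.6% of EBF1 and 85.4% to 97.2% of EBF2. In ZNF423 the lncRNA ZNF423-OT1, which overlaps the gene, made up between 3.12% and 12.8% of the sum. The other assembled transcript of ZNF423, TCONS_00216095, made up between 21.4% and 29.4% of it.

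Because whole muscle was sampled, the markers of mature fat cells were set beside the members. Of 12 adipocyte markers, 9 were tested, and AQP7, CIDEA and TRARG1 did not match a symbol of the table. All 9 had a positive log2 fold change, with a median of 1.79 against 0.21 for all genes, and 5 passed, all higher in S-H (2 without LW63, 2 without LW90, 2 with the highest transcript and 0 without a minimum level). The 5 that passed were ADIPOQ (adiponectin), PLIN1 (the coat protein of fat droplets), CIDEC (which fuses droplets), LEP (leptin) and RBP4 (retinol-binding protein). They rose by 1.90, 2.04, 2.02, 1.79 and 2.14 on the log2 scale (adjusted p values from 0.463 to 0.548, limma). The other tested markers, LIPE, GPD1, PLIN4 and CFD, moved less and did not pass, at 0.78, 0.74, 0.56 and 0.26. The summed FPKM of the list was 405.9 to 1113 in the S-H pigs and 324.2 to 410.0 in the S-L pigs, so that LW90 was just above LW119. The mean of log2(FPKM + 0.1) over the 9 markers was 5.65 in LW63, 4.78 in LW70 and 4.46 in LW119, and 3.92 in LW82, 3.68 in LW88 and 3.20 in LW90. On this measure the groups did not overlap, with a difference of 1.36 (exact two-sided permutation test, p = 0.10).

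PPARG was then taken relative to this level. Of the 9 markers, 8 are also in the list, given below, of genes that PPARG and the C/EBP factors switch on. The marker level is therefore not a measure of the share of fat cells apart from these factors. The difference between log2(PPARG + 0.1) and the mean of the markers was -1.97 in LW63, -2.24 in LW70 and -2.40 in LW119, and -2.09 in LW82, -1.76 in LW88 and -2.01 in LW90. The groups overlapped on this relative scale, with a mean of -2.20 ± 0.22 for the S-H pigs and -1.96 ± 0.17 for the S-L pigs (SD, n = 3 each). The group difference was -0.25 (exact two-sided permutation test, p = 0.30), where PPARG alone gave 1.11, and it was 0.22 with the highest transcript of each gene in place of the sum. For CEBPA the relative level was -0.88 ± 0.46 for the S-H pigs and -1.17 ± 0.56 for the S-L pigs (SD, n = 3 each), a difference of 0.30 (exact two-sided permutation test, p = 0.50). For CEBPB the difference was -1.64 (exact two-sided permutation test, p = 0.20), and for the other 7 it ranged from -3.07 for NR1H3 to -0.84 for EBF1. The groups did not overlap, with S-H below, for RXRA (-1.32), KLF15 (-1.70), ZNF423 (-1.30) and NR1H3 (-3.07), each with an exact p = 0.10, the smallest that 3 pigs against 3 allow. The marker level subtracted here was itself 1.36 higher in S-H, so a member equal in both groups comes out below 0. RXRA and ZNF423, with log2 fold changes of 0.03 and 0.06 before the subtraction, were nearly equal. Their separation on this scale restates the rise of the markers. How far the share of fat cells entered into the PPARG and CEBPA values was not tested further.

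**Figure D5:**
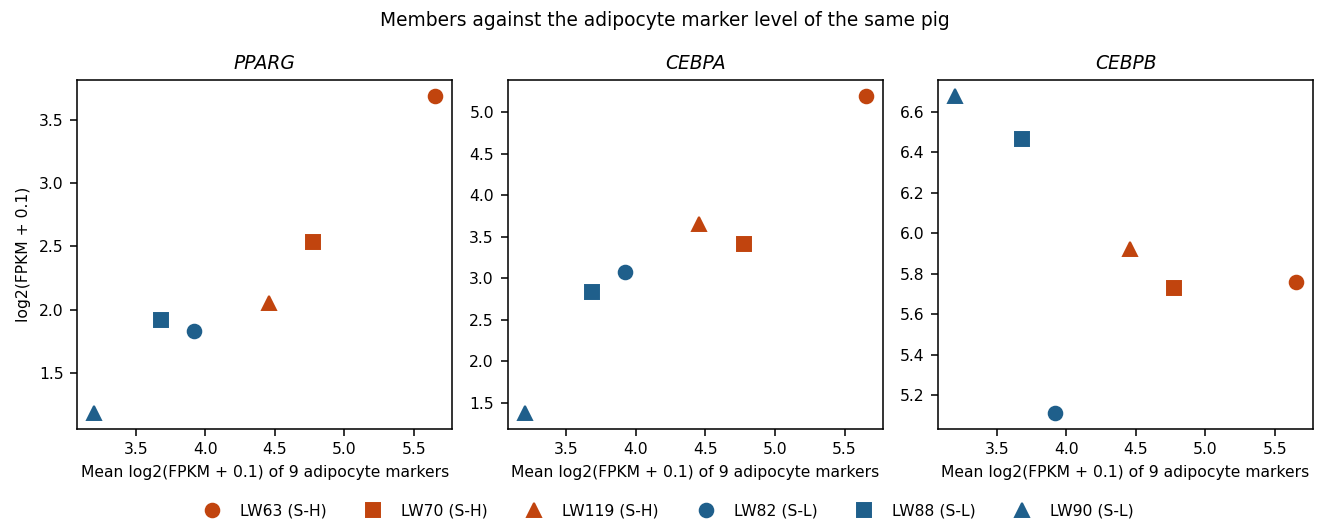
Log2(FPKM + 0.1) of PPARG, CEBPA and CEBPB (y axes) against the mean log2(FPKM + 0.1) of 9 adipocyte markers (x axis), with 1 point per pig, S-H in red and S-L in blue. For PPARG and CEBPA the highest point is LW63 and the lowest is LW90 on both axes, while CEBPB is highest in LW90.

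Markers of other cells that can express these factors moved less. Of 11 tested markers of fibro-adipogenic progenitors none passed, with a median log2 fold change of 0.36. The smallest p values of that list were those of THY1 (0.84) and PDGFRA (0.81), the latter at 39.3 FPKM in LW119 and 8.80 to 16.7 FPKM in the other pigs. None of 10 macrophage markers passed (median 0.27), and MARCO and AIF1, the genes of that list with the smallest p values, had log2 fold changes of 1.57 and 0.77. Of 10 endothelial markers 1 passed, CLDN5, a tight junction protein, at 1.87, while PECAM1 was at 0.48 and the median was 0.20. None of 8 markers of smooth muscle cells and pericytes passed (median 0.16, with TAGLN at 0.38 and PDGFRB at 0.24). Of 12 markers of muscle fibres, 8 were found and tested, and none passed (median -0.27, with PYGM at -0.57 and MYBPC1 at 0.55). The creatine kinase CKM lay between 1985 and 3939 FPKM. ACTA1, TTN, MYH1 and MYH2 did not match a symbol of the table. The part of these cells in the members' values was not tested.

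The genes that PPARG and the C/EBP factors are known to switch on in fat cells formed the group with the largest shift among the pathway lists. Of 28 such targets 25 were tested, 23 had a positive log2 fold change, and 8 passed, all higher in S-H. Their median was 0.74. The count of 8 became 4 without LW63, 3 without LW90, 4 with the highest transcript and 0 without a minimum level. THRSP, which promotes fat synthesis, was at 9.07, 2.43 and 4.45 FPKM in LW63, LW70 and LW119 and at 0.978, 1.24 and 0.258 FPKM in LW82, LW88 and LW90, a log2 fold change of 2.56. DGAT2, which makes the last step of triglyceride synthesis, rose by 2.25. The list is not separate from the adipocyte markers, since 8 of its 25 tested genes are also among the 9 tested markers (all but RBP4). Those 8 had a median of 1.28 and 4 that passed, and the 17 other targets had a median of 0.42 and 4 that passed, namely THRSP, DGAT2, FABP4 and SCD. Not all targets moved, since LPL, the lipase that frees fatty acids from lipoproteins, was at 0.02 and the fatty acid transporter CD36 at 0.13. These last 2 genes were chosen after their values were seen.

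Of 25 other factors and coactivators known to promote adipogenesis, all 25 were tested and 1 passed, PPARGC1A, the coactivator of oxidative metabolism, which was lower in S-H. It was at 10.01, 22.4 and 15.1 FPKM in LW63, LW70 and LW119 and at 25.5, 76.0 and 43.7 FPKM in LW82, LW88 and LW90. The groups did not overlap, and its log2 fold change was -1.54 (standard error 0.41, adjusted p of 0.540, limma). NFIB, a nuclear factor I protein, averaged 26.8 ± 4.79 FPKM in the S-H pigs and 15.1 ± 5.94 FPKM in the S-L pigs (SD, n = 3 each), a log2 fold change of 0.89 that did not pass. The median of this list was 0.12.

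Some relatives of the members in the same list were also looked at, chosen after the values were known. NR1H2, the other liver X receptor, was at 13.8, 13.5 and 13.9 FPKM in LW63, LW70 and LW119 and at 9.40, 9.77 and 9.23 FPKM in LW82, LW88 and LW90. Its groups did not overlap, and its log2 fold change was 0.53 (limma, unadjusted p of 0.0330, adjusted p of 0.607). NR1H2 exceeded NR1H3 in FPKM in all 6 pigs. RXRB (0.12), RXRG (-0.38), CEBPG (0.22) and EBF3 (0.23) had log2 fold changes with unadjusted p values from 0.427 to 0.708 (limma).

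Of 24 factors known to restrain adipogenesis, 20 were tested and none passed, with a median of 0.00 and 10 genes on each side of 0. FOXO1, a forkhead factor restrained by insulin, averaged 8.38 ± 1.15 FPKM in the S-H pigs and 13.6 ± 3.96 FPKM in the S-L pigs (SD, n = 3 each), a log2 fold change of -0.65. KLF2, an inhibitor of the PPARG promoter, had a log2 fold change of 0.46. DLK1, the preadipocyte factor, was below the minimum for testing.

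Liver X receptor targets were taken as a list for NR1H3. Of 16 genes 12 were tested, and 2 passed, both upward in S-H. The median was 0.24 over the list, which holds NR1H3 itself. APOE, the apolipoprotein E gene, was at 49.5, 21.2 and 20.4 FPKM in LW63, LW70 and LW119 and at 7.89, 7.90 and 4.38 FPKM in LW82, LW88 and LW90. Its log2 fold change was 2.08 (standard error 0.38, adjusted p of 0.262, limma), and SCD, the desaturase of stearic acid, had one of 2.62 (standard error 0.69, adjusted p of 0.540, limma). For both genes the groups did not overlap.

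For KLF15 and CEBPD, which glucocorticoids induce, a list of 19 glucocorticoid-induced genes that holds both was examined. None of the 17 tested genes passed, 11 had a negative log2 fold change, and the median was -0.18. FOXO1, also in this list, and PER1, a clock gene with a log2 fold change of -0.46, had the smallest p values.

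Among the 11490 other tested genes with a symbol, the 5 outside the members whose profile over the 6 pigs was nearest to PPARG were ICAM3, LRFN4, EFCC1, MMP27 and ACAA1. Likeness was the root mean square difference of log2(FPKM + 0.1) after each gene was centred on its own mean over the 6 pigs, and it was 0.12 for ICAM3, 0.14 for LRFN4, and 0.20 for EFCC1, MMP27 and ACAA1. ICAM3 lay between 0 and 0.438 FPKM, where the added 0.1 weighs on the profile. ACAA1, a thiolase of peroxisomal fatty acid oxidation, was at 13.6, 5.14 and 4.004 FPKM in LW63, LW70 and LW119 and at 3.53, 2.75 and 1.60 FPKM in LW82, LW88 and LW90. Among the members the nearest to PPARG was CEBPA (0.47), in place 384 of all these genes, followed by EBF1 (0.58), EBF2 (0.63) and RXRA (0.69). CEBPB (1.08) and NR1H3 (1.60) were the farthest.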

How the data were processed

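Ribosomal RNA-depleted, strand-specific libraries were aligned by the authors to Sscrofa11.1 with HISAT2, and transcripts were assembled and quantified with StringTie (versions not given in the sources used here). The deposited values are FPKM per transcript and pig, without a stated scaling between libraries. By their values, the 21104 symbol-less Ensembl rows are in TPM, and they were put on the FPKM scale with 1 factor per pig, from 0.639 to 0.847. No member row was affected. FPKM were summed by gene identifier. Gene types came from the RefSeq table of the same assembly, by symbol (14189 genes) or reciprocal overlap of at least 50% (4391 genes), giving 17088 protein-coding genes. Features that averaged 0.1 FPKM or more over the pigs were tested with limma 3.58.1 (R 4.3.3, variance trend) on log2(FPKM + 0.1), which understates changes of low genes, with Benjamini-Hochberg adjustment over all features tested. The study used edgeR on counts, which were not used here. The fit was tested on simulated data. Single values were compared by exact permutation with Python 3.11.15.

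The members and lists were chosen with earlier results of these data known. The genes named were all members, the PPARG transcripts, the genes of each list that passed (at most 5 by p, or the 2 with the smallest p where fewer than 2 passed), and the 5 nearest profiles to PPARG. Other settings tried were pseudocounts of 1 and 0.01, other minimum values, TPM, size factors, quantile normalization, other limma variances, the highest transcript, all annotated genes, each pig left out, and, chosen after seeing the data, NR1H3 with MADD-203 and members without assembled transcripts.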

Additional observations from a re-analysis of the deposited data

How the results depend on the processing

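Of 190 recomputed log2 fold changes of the 10 members, 171 kept their sign and side of the thresholds, 7 passed where the reported value did not, and 12 changed sign. The number of members that passed went from 0 to 2 on the TPM scale. It lay between 0 and 2 with each pig left out. The number over all tested genes also rose with TPM, from 173 to 253 of 12743 (239 higher, 14 lower). With each pig left out that total lay between 86 and 262. The number without overlap between the groups went from 2 to 1 with median-ratio size factors and to 1 with quantile normalization. It was also 1 with the highest transcript in place of the sum (PPARG overlapped in all 3). With each pig left out it lay between 2 and 5. Over all tested genes the share without overlap, either way, was 14.8% in the main fit. This share was 12.5%, 12.7% and 14.2% in those 3 settings, and 19.4% to 29.3% with each pig left out. The count of 5 came without LW70 (29.3% of all tested genes) and without LW82 (29.0%). The number of passing pathway genes, 10 of 91 tested, was 1 without a minimum, 5 with the highest transcript, and between 4 (without LW90) and 13 with each pig left out, with 5 without LW63. PPARG relative to the adipocyte markers was 0.22 with the highest transcript. The highest transcript gave NR1H3 0.24. Size factors gave RXRA -0.18 and ZNF423 -0.16, and quantile normalization gave -0.13 and -0.18. With each pig left out, RXRA ranged from -0.061 to 0.18, ZNF423 from -0.17 to 0.32, CEBPD from -0.079 to 0.53 and CEBPB from -0.77 to 0.015. The cause was not tested. The median over all genes was 0.35 with TPM and 0.01 with size factors, and the 173 passing genes (149 higher, 24 lower) became 139 (84 higher, 55 lower) with size factors, 81 without a minimum, 77 with a pseudocount of 1 and 86 without LW90. No paired analysis was possible because no label ties an S-H pig to an S-L pig. FPKM give no counts, so low values such as those of NR1H3 in LW70 have a counting error that cannot be computed here.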

Other observations

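CD79A, a B cell receptor gene of the B cell marker list, was at 88.9 to 145.0 FPKM in the 6 pigs, while the mean level was 0.014 FPKM for PAX5, and CD79B was at 0.163 to 1.10 FPKM. The entry for CD79A spans 49975957 to 50010059 of chromosome 6, and which part of this extent gave its level was not tested. The groups did not overlap for CD79A, with S-H above and a log2 fold change of 0.47 (unadjusted p of 0.0648, limma). Its level was above that of every member in 5 of the 6 pigs.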
